A study of Mus musculus with 8 samples.

Results

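The intermediate filament genes of neurons and of progenitor or mesenchymal cells were described across 4 origins of E11.5 mouse embryo material and across the FAK mutant and control array of each origin. The 7 genes are Nefl, Nefm, Nefh, Ina, Prph, Nes and Vim, out of 18193 genes on the array. They were read from the 17 probe sets annotated to exactly 1 of these symbols, out of 34945 probe sets with a single gene. A gene is represented by its brightest probe set, which was chosen by the mean intensity over all 8 arrays, and the dimmer probe sets are given beside it where they bear on a result. The 7 symbols themselves were chosen from gene family knowledge with earlier results of these arrays in view. The p-values below therefore come from a fit across all genes and describe these arrays, and they are no independent support for the choice of genes.

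Controls and FAK mutants were each measured on 4 arrays, 1 array per origin. FAK is short for focal adhesion kinase, an enzyme that signals where integrins hold a cell to its matrix, and the labels give neither the mutant allele nor a driver of its deletion. A control and a mutant array came from cranial neural crest cells sorted for p75 from head and thorax of E11.5 embryos, 3 pooled embryos for each array. The other origins are labelled LM, OFT and UM, which the labels do not spell out, and for these 6 arrays the embryonic stage comes from the title of the study. The sources used here do not give the number of embryos behind them. With 1 array per origin and genotype there are no replicates of a group. Where origins are compared, an origin's control and mutant serve as its 2 arrays, and in the comparison of genotypes the 4 origins are the pairs.

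Intermediate filaments are rope-like polymers of long coiled-coil proteins that give a cell mechanical strength. Neurofilaments of mature axons are built from the light, medium and heavy neurofilament proteins together with alpha-internexin, and peripherin takes part in them in neurons whose axons run in the peripheral nervous system. Neuroepithelial progenitors carry nestin and vimentin, and vimentin is also the main filament of mesenchymal, endothelial and neural crest cells. Nestin is known as well from myoblasts and from the endothelium of growing vessels.

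All arrays had been brought to a common scale by the authors, with a trimmed mean of 150.001 on every array. The p75-sorted arrays stood apart in the Gapdh ratio, which sets the control probes at the 3' end of the transcript against those at its 5' end and was 2.82 for the control and 4.91 for the mutant, whereas the 6 unsorted arrays had 0.70 to 0.986. The ratio for Actb was 1.42 to 1.94 on all arrays. Ngfr, the gene of p75, reached 1040 in sorted control cells and 1420 in sorted mutant cells, against 47.0 to 149 elsewhere. Ptk2, the gene of FAK, was not analysed here, so the genotype labels were taken as given.

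The neurofilament genes Nefl and Nefm were bright in p75-sorted cells and OFT and dimmer in LM and UM. Nefl, which encodes the light chain that every neurofilament needs for assembly, gave intensities of 1610 and 712 for the sorted control and mutant, 152 and 312 in LM, 1180 and 680 in OFT, and 281 and 65.4 in UM. The p75-sorted and OFT arrays overlapped each other, LM and UM overlapped each other, and neither of the first pair overlapped either of the second. Nefm, which encodes the medium chain with its long phosphorylated tail, gave 1240 and 679 for the sorted control and mutant, 119 and 278 in LM, 1520 and 1010 in OFT, and 344 and 87.3 in UM. Its origins fell into the same overlapping pairs as those of Nefl. Nefh, the heavy chain gene, which is switched on late as axons mature, reached 23.3 in sorted control cells and 2.64 in sorted mutant cells. It gave 8.43 in the LM control, 10.6 and 8.30 in OFT, and 2.60 and 4.13 in UM, and the LM mutant lay just above the highest of these. A gene was tested only if at least 2 arrays lay above an intensity of 19.4, the 40th percentile of all values. Nefh reached it on 1 array and was not tested, while the other 6 genes passed.

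Ina and Prph separated the origins further, since both were near the bottom of the scale in LM. Ina, which encodes alpha-internexin, a filament protein of young neurons, gave intensities of 1130 and 605 for the sorted control and mutant, 6.50 and 14.5 in LM, 237 and 84.0 in OFT, and 72.7 and 63.8 in UM. Its 4 origins did not overlap, in the order p75-sorted, OFT, UM and LM. Prph, which encodes peripherin, gave 160 and 65.8 for the sorted control and mutant, 1 and 1.14 in LM, 94.6 and 31.9 in OFT, and 14 and 1.52 in UM. Here p75-sorted cells and OFT overlapped, and all 4 arrays of LM and UM lay below the filter intensity of 19.4. Differences against values this low depend on the pseudocount of 32 that was added to every intensity before taking log2, by which an intensity of 0 becomes 5 on the log2 scale.

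Nes and Vim, the genes of nestin and vimentin, were highest in p75-sorted cells, then OFT. Nes gave intensities of 286 and 830 for the sorted control and mutant, 99.0 and 6.73 in LM, 193 and 168 in OFT, and 83.9 and 58.1 in UM. The LM mutant was the lowest array by far and the p75-sorted mutant the highest, and LM overlapped UM. Vim was bright everywhere, with 6200 and 6120 for the sorted control and mutant, 3400 and 2800 in LM, 5210 and 5310 in OFT, and 3060 and 3200 in UM. LM and UM overlapped, and OFT and p75-sorted cells lay above them without overlap.

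**Figure D1:**
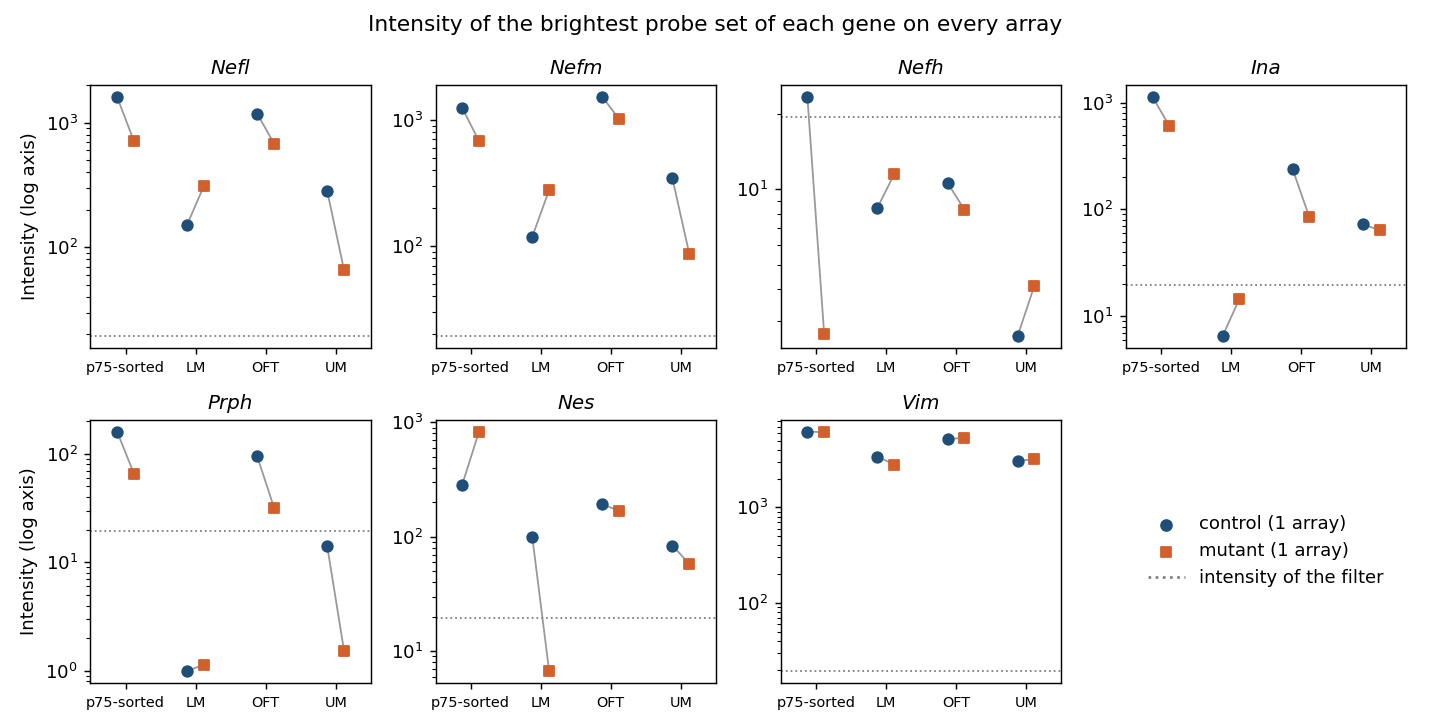
Intensity of the brightest probe set of each of the 7 genes (log axis, no unit) on the 8 arrays, with circles for controls and squares for mutants, 1 array each, and a line joining the arrays of an origin. Nefl, Nefm, Ina and Prph slope down from control to mutant in every origin but LM, Nefh lies below the dotted filter intensity of 19.4 on 7 arrays, and Vim is nearly flat.

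OFT was compared with the mean of LM and UM to ask which of these genes mark that origin. Of the 6 genes tested, 5 were higher in OFT and 0 lower, where 11.3% of all 13543 genes were called higher and 3.88% lower. Nefm rose by 2.57 ± 0.37 log2 units (± limma's moderated SE, 2 arrays per origin), a 5.93-fold difference, with adjusted p = 0.00052 by limma. Nefl rose by 2.15 ± 0.37, which is 4.44-fold, with adjusted p = 0.0018. Ina rose by 1.44 ± 0.25 with adjusted p = 0.0021 and Prph by 1.32 ± 0.21 with adjusted p = 0.00089. Prph had passed the filter only through its p75-sorted and OFT arrays, so its place in this count depended on those origins. Vim rose by 0.75 ± 0.15, which is 1.69-fold, with adjusted p = 0.0055. Nes differed by 1.31 ± 0.43 and did not pass, with adjusted p = 0.058 by limma.

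Without the OFT control array 1 of the 6 genes, Nefm, passed by limma, at 2.53 with adjusted p = 0.02. The differences of Nefl, Prph and Vim were then 2.08, 1.06 and 0.81, with adjusted p of 0.053, 0.06 and 0.086, and Ina stood at 0.95 with 0.13. Without the OFT mutant array Vim alone of the 5 lost its call, at 0.70 with adjusted p = 0.099. With a gene's probe sets averaged, Prph stood at 0.44 with adjusted p = 0.092, and with an intensity trend in limma's prior Nefl kept its 2.15 with adjusted p = 0.07. Nes passed with adjusted p = 0.016 without the p75-sorted arrays and with 0.00022 without the LM control array, whereas its dimmer probe sets differed by 0.39 ± 0.16 and 0.09 ± 0.17. The second probe set of Nefl rose by 2.08 ± 0.25, close to the first. Both dimmer probe sets of Ina rose as well, by 1.31 ± 0.24 and 0.87 ± 0.20. The dimmer probe sets of Vim went from 0.24 ± 0.17, which did not pass, to 0.59 ± 0.16, which passed with adjusted p = 0.025 in a limma fit over 25637 probe sets. At a pseudocount of 1 only Prph passed, at 3.97. The differences of Nefl, Nefm, Ina and Vim were 2.38, 2.79, 2.38 and 0.76 there, with adjusted p of 0.051 to 0.085 by limma.

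Cells sorted for p75 were compared with the mean of LM, OFT and UM. All 6 genes tested were higher in sorted cells, where 28.3% of all genes were called higher and 19.0% lower. Ina had the largest difference, 3.24 ± 0.24 on the log2 scale or 9.46-fold, with adjusted p = 1.6e-06 by limma. Nes rose by 2.18 ± 0.40, with adjusted p = 9e-04. Nefl rose by 1.68 ± 0.35, Prph by 1.49 ± 0.19 and Nefm by 1.30 ± 0.35, with adjusted p between 8.6e-05 and 0.0096 by limma. Here too Prph was tested only because its p75-sorted and OFT arrays passed the filter. Vim rose by 0.73 ± 0.15, with adjusted p = 0.0015. Sorted cells were not tested against OFT alone. There Nefm was lower in sorted cells, with a mean log2 value of 9.89 against 10.31 in OFT. Nefl, at 10.11 against 9.86, and Vim, at 12.6 against 12.37, were slightly higher. Ina, at 9.75 against 7.46, Nes, at 9.03 against 7.73, and Prph, at 7.1 against 6.49, were higher by more.

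The Gapdh ratio moved with this comparison, as given above, and its part in these differences was not tested. At a pseudocount of 1 and with an intensity trend in the prior 3 genes were called, namely Ina, Prph and Vim. With the trend Nefl, Nefm and Nes had adjusted p of 0.054, 0.11 and 0.056 by limma. Without the p75-sorted control array Nefl and Nefm no longer passed, with adjusted p = 0.077 and 0.16, and without the p75-sorted mutant array Nefm and Nes did not, with 0.074 and 0.07. The Nes difference was 1.08 without the sorted mutant and 3.28 without the sorted control. The dimmer probe sets of Ina rose by 2.15 ± 0.22 and 2.40 ± 0.19, both below the 3.24 of the brightest. The second probe set of Nefl rose by 1.97 ± 0.24. The dimmer probe sets of Nes rose by 1.52 ± 0.15 and 1.25 ± 0.16, both below the 2.18 of the brightest. Of the dimmer probe sets of Vim, 1 passed at 0.52 ± 0.15 and 1 did not, at 0.21 ± 0.16.

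LM was compared with UM, and 0 of the 6 genes passed by limma, where 0.738% of all genes were called higher in LM and 0.82% lower. At an unadjusted p under 0.05 there was 1 gene, Ina, which differed by -1.24 ± 0.29 with adjusted p = 0.064. It passed with an intensity trend in limma's prior, with adjusted p = 0.046, without either OFT array, with 0.041, and without the LM mutant, with 0.0027, so its side of the threshold depended on the arrays used. The dimmer probe sets of Ina differed by -0.80 ± 0.27 and -0.90 ± 0.23, with adjusted p of 0.37 and 0.13 in the limma fit over probe sets. Nefl differed by 0.52 ± 0.43 and Nefm by 0.03 ± 0.43. Nefl passed at 1.58 with adjusted p = 0.0056 without the LM control array and had the opposite sign, -0.53, without the LM mutant. Nes differed by -0.52 ± 0.49, Prph by -0.25 ± 0.24 and Vim by -0.02 ± 0.18.

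**Figure D2:**
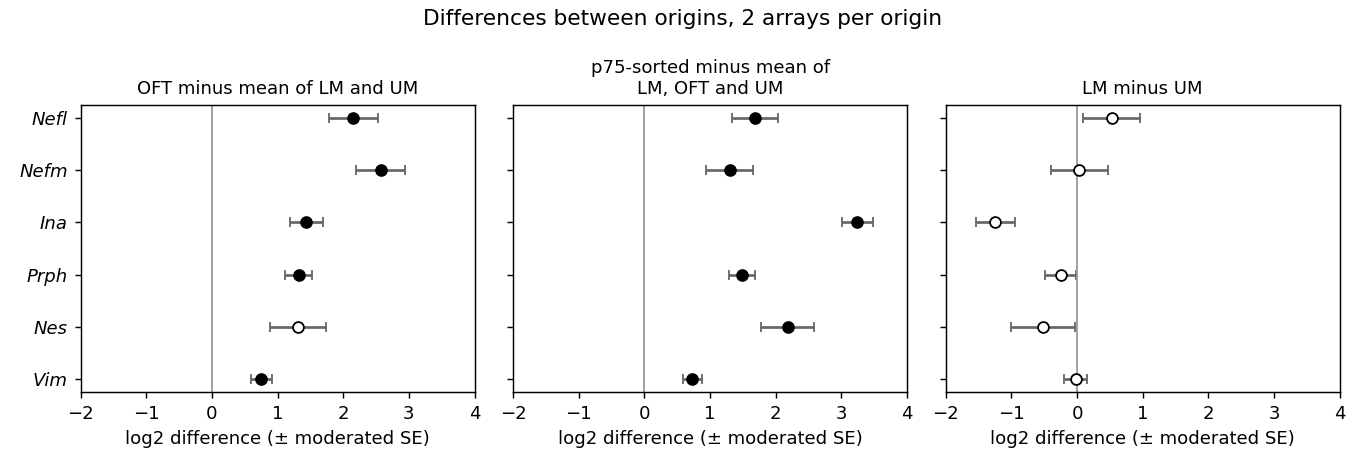
Log2 difference between origins (x axis, with moderated SE as bars, 2 arrays per origin) for the 6 genes tested, filled where the limma adjusted p is under 0.05 and open otherwise. In OFT Nefm lies farthest right at 2.57, in p75-sorted cells Ina does at 3.24, and no gene passed between LM and UM.

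Promoter sequences from RefSeq (GRCm38.p6) were at hand for 4 of the 7 genes, Ina, Prph, Nes and Vim, and Nefl, Nefm and Nefh had no entry. They are shown because Ina and Prph ran together over the arrays, with Pearson's r = 0.93 of their log2 values. Vim stayed bright on every array, but it also ran with Ina and Prph, at r = 0.85 and 0.89. Each is the 150 bases before a start of transcription, on the plus strand, in lower case. The Prph window lies inside the annotated span of its gene, chr15:99053579-99058978, so the start used for Prph is not the first base of that span. Capitals mark the TATA box, searched as TATAAA. They also mark the E-box, which basic helix-loop-helix factors bind and which was searched as CANNTG. The CCAAT box was marked as well, and all motifs were searched on both strands.
Ina, chr19:47014531-47014680: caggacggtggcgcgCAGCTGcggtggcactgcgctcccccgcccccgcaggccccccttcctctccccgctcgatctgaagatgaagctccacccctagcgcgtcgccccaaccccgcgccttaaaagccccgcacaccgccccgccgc
Prph, chr15:99055024-99055173: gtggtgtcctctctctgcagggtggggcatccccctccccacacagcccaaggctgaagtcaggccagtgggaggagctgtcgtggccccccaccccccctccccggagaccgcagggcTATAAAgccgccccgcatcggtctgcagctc
Nes, chr3:87970943-87971092: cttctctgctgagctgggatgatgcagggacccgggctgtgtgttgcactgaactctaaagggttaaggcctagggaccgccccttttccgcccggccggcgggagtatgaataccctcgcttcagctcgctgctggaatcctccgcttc
Vim, chr2:13574161-13574310: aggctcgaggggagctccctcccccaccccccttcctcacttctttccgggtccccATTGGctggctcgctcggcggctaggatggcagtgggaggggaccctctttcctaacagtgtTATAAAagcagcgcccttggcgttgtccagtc

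TATAAA stood 31 bases before the start in Prph and 32 bases before it in Vim, and 7.57% of 32851 promoters of the same length hold it. Ina held 1 E-box, CAGCTG, 135 bases before the start, and 47.7% of promoters hold a CANNTG. Vim held a CCAAT box on the other strand, written ATTGG, 94 bases before the start, and 24.5% of promoters hold CCAAT. None of the 3 motifs overlapped another, and the window of Nes held none of them. Guanine and cytosine made up 74.0% of the Ina window, 69.3% of Prph, 62.7% of Vim and 60.7% of Nes. Ina and Prph, which ran together, thus shared none of these motifs in the window shown. Prph shared its TATAAA with Vim, with which it correlated at r = 0.89.

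Of 14 other intermediate filament genes tested of 16 listed, 6 were higher and 4 lower in OFT. Of all genes, 11.3% were called higher there and 3.88% lower. Des, the filament gene of muscle, rose by 1.82 ± 0.20 with adjusted p = 5.7e-05 by limma, and the keratin genes Krt14 and Krt15, of stratified epithelium, fell by 1.78 and 1.01. In p75-sorted cells 3 of the 14 were higher and 6 lower, where 28.3% of all genes were called higher and 19.0% lower. Lmna, the gene of the A-type nuclear lamins, rose there by 1.45 ± 0.16, while the simple epithelial keratin genes Krt18 and Krt19 fell by 1.49 and 1.03. Krt8, the partner of Krt18, was the only gene of this list to pass between LM and UM, with -0.78 ± 0.17 and adjusted p = 0.045. The median difference of the list was 0.39 in OFT and -0.32 in p75-sorted cells, where the 6 genes had 1.38 and 1.58 and all tested genes 0.014 and 0.069.

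Of 19 tested genes whose products link, carry, fold or phosphorylate intermediate filaments, 5 were higher and 0 lower in OFT, led by the small heat shock protein genes Cryab and Hspb1, which rose by 3.30 ± 0.16 and 2.16 ± 0.18. Dst, a linker of filaments to adhesion and microtubule structures, rose there by 1.40 ± 0.15 with adjusted p = 4.6e-05 by limma. In p75-sorted cells 7 of the 19 were higher and 3 lower, beside 28.3% and 19.0% of all genes. Cryab rose by 2.07 ± 0.15 and Klc1, a kinesin light chain gene, by 1.78 ± 0.17, while Dsp, the desmoplakin gene that ties keratin to desmosomes, fell by 2.58. Between LM and UM 0 of the 19 passed by limma, and the largest difference was 0.71 ± 0.21 for Hspb1 with adjusted p = 0.19.

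Markers of neurons went only in part with the same origins as the filament genes. Of all genes 11.3% were called higher in OFT and 28.3% in p75-sorted cells. Of 20 neuron markers tested, 7 were higher, 1 was lower and 12 did not pass in OFT. In p75-sorted cells 13 of these markers were higher, 0 were lower and 7 did not pass. Their summed intensity was 7250 and 5090 for the sorted control and mutant, 4050 and 2820 in OFT, 2710 and 2260 in UM, and 1100 and 1310 in LM. Dcx, a microtubule protein gene of migrating neurons, rose in p75-sorted cells by 2.93 ± 0.19. Isl1, a transcription factor of sensory and motor neurons that is also made by second heart field cells, rose in OFT by 1.93 ± 0.20. Smooth muscle markers rose in OFT for 6 of 6 genes, heart muscle markers for 7 of 8 and endothelium markers for 5 of 8, and the part of any of these cell types in the filament differences was not tested. In such mixed material fewer cells of a type and less RNA per cell cannot be told apart.

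Several neuron markers differed between LM and UM, with 5 of 20 lower in LM and 0 higher, where 0 of the 6 filament genes passed. Of all genes 0.82% were called lower in LM. Stmn2, a tubulin-binding gene of growing axons, fell by 2.48 ± 0.27 and Neurod1, a neuronal differentiation factor, by 1.97 ± 0.25, with adjusted p = 4e-04 and 0.0012 by limma. Progenitor markers were lower in LM for 3 of 9 genes, Lhx2, Sox2 and Pax6, and lower in OFT for 3 of 9, Lhx2, Pax6 and Prom1. In p75-sorted cells 4 of the 9 progenitor markers were higher, led by Fabp7, a fatty acid binding protein gene of radial glia and glial precursors, at 3.66 ± 0.22. Of all genes 28.3% were called higher there and 19.0% lower. All 8 neural crest and glia markers tested were higher there, led by Sox10 at 4.56 ± 0.16, with a median of 2.54. Mesenchyme markers were mixed there, with 4 of 10 higher and 4 lower, and 7 of 8 endothelium markers, 5 of 8 heart muscle markers and 6 of 6 epithelium markers were lower. Skeletal myoblast markers, from cells known for nestin, were higher there for 7 of 8 genes and lower for 0, with a median of 0.94, and 5 of 8 were higher in LM than in UM.

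Mutants were compared with controls to ask whether the filament genes change with FAK. The neuronal genes were lower in the mutant in the p75-sorted, OFT and UM pairs and higher or level in the LM pair. The Nefl difference was -1.14 on the log2 scale for p75-sorted cells, -0.77 for OFT, -1.68 for UM and 0.90 for LM. Nefm differed by -0.84, -0.57 and -1.66 in the same origins, and by 1.03 in LM. For both genes the LM mutant was the brighter array of its pair and the UM pair had the largest difference. The 2 arrays of the p75-sorted pair also differed in the Gapdh ratio, 2.82 for the control and 4.91 for the mutant. Their Actb ratios were 1.57 and 1.65. The part of RNA quality in the differences of this pair was not tested.

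The Ina difference was -0.86 for p75-sorted cells, -1.21 for OFT, -0.13 for UM and 0.27 for LM, where both of its values lay below the filter intensity. Prph differed by -0.97, -0.99 and -0.46, and by 0.01 in LM, where it was near the bottom of the scale. With the pseudocount of 32 these differences were largest in p75-sorted cells and OFT, the origins where both genes were brightest. That pseudocount shrinks differences between low intensities, such as 14 and 1.52 for Prph in UM or 6.50 and 14.5 for Ina in LM. The order of the origins therefore depends on it. Nes had a different outline, with 1.44 for p75-sorted cells, -0.17 for OFT, -0.36 for UM and -1.76 for LM. Vim differed by -0.28 in LM and by -0.02 to 0.07 elsewhere.

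Across the 4 pairs 0 of the 6 genes passed by limma, where 0% of all genes were called in either direction and 410 of 13543 had an unadjusted p under 0.05. All 6 differences lay below 0, with a median of -0.50 against -0.013 over all genes. Nefl differed by -0.67 ± 0.30 (moderated SE, n = 4 pairs), Prph by -0.60 ± 0.17, Nefm by -0.51 ± 0.31 and Ina by -0.48 ± 0.21. Each was lower in 3 of 4 pairs, and each had an adjusted p of 1 by limma, with unadjusted p of 0.046, 0.0037, 0.12 and 0.037. Nes differed by -0.21 ± 0.35 and Vim by -0.05 ± 0.13. The LM pair was the only one in which Nefl and Nefm were higher in the mutant. Leaving it out therefore could only make their differences more negative. Without the LM pair Nefl passed at -1.20 with adjusted p = 0.036 by limma and was the only gene of all tested to do so. Nefm reached -1.02 there, with adjusted p = 0.13 by limma. Without the UM pair Nefl stood at -0.34 and Nefm at -0.13, and Ina stood at -0.24 without the OFT pair and -0.73 without the LM pair.

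Within single pairs there is no test, and a difference of 2-fold or more served as a description. In p75-sorted cells Nefl and Nes differed 2-fold or more, and of all genes 0.406% did. In LM they were Nefm and Nes, with 0.569% of all genes, and in OFT Ina, with 0.199%. In UM they were Nefl and Nefm, with 0.222%. The 7 genes were listed with such differences already known, so nothing is read from these counts.

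**Figure D3:**
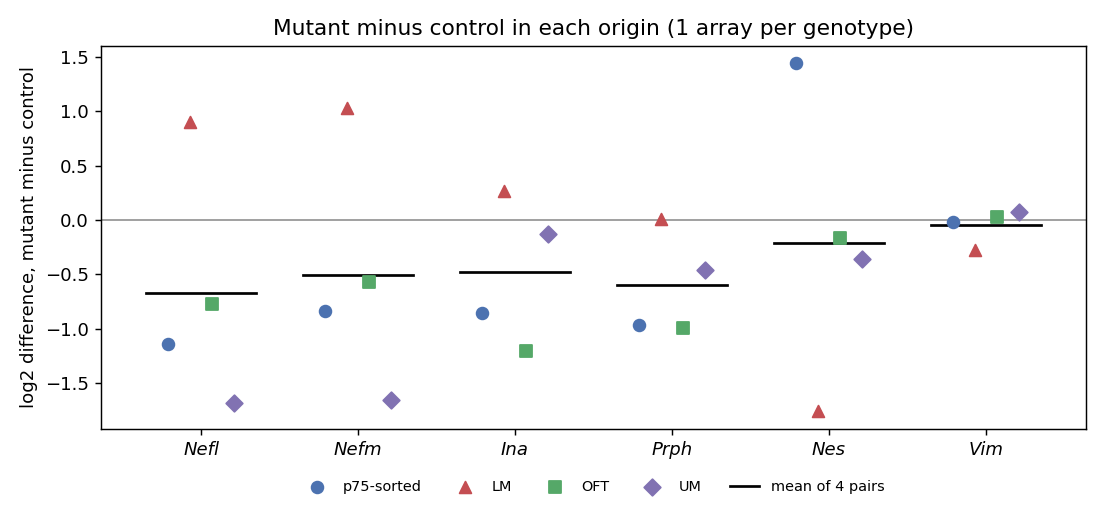
Mutant minus control on the log2 scale (y axis) for the 6 genes tested, with 1 symbol per origin, each from 1 array per genotype, and a bar at the mean of the 4 pairs. The LM triangles lie at or above 0 for the 4 neuronal genes, from 0.01 for Prph to 1.03 for Nefm, and far below 0 for Nes, at -1.76.

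The second probe set of Nefl gave -1.05 for p75-sorted cells, -0.94 for OFT, -1.09 for UM and 0.29 for LM, so the higher value in the LM mutant was smaller there. Over the 4 pairs it differed by -0.70 ± 0.20, with an adjusted p of 1 by limma. The dimmer probe sets of Ina gave -0.59 and -0.81 for p75-sorted cells, -1.30 and -1.01 for OFT, -0.26 and -0.25 for UM, and 0.11 and -0.12 for LM, so 1 of the 3 Ina probe sets was lower in the LM mutant. The 3 dimmer probe sets of Prph lay at intensities of 1.01 to 18.6 on all arrays and did not pass the filter, and Nefm and Nefh had a single probe set.

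For Nes, the second probe set gave 248 and 234 for the sorted control and mutant, 62.7 and 51.6 in LM, 79.8 and 84.3 in OFT, and 48.7 and 57.5 in UM. Its differences ran from -0.18 to 0.15, against -1.76 to 1.44 for the brightest. The third differed by -0.32 to 0.28. The large Nes differences in p75-sorted cells and LM were thus present in 1 of 3 probe sets. Skeletal myoblast markers were higher in the mutant for 8 of 8 genes in p75-sorted cells, with a median of 0.80 and summed intensities of 1080 for control and 2180 for mutant. In LM they were higher for 7 of 8, with a median of 0.50 and sums of 594 and 840. Neural crest and glia markers were higher in the mutant for 7 of 8 genes in p75-sorted cells, with a median of 0.27, and progenitor markers for 6 of 9, with a median of 0.13. Endothelium markers were higher there for 3 of 8, with a median of -0.02. In LM the medians of these 3 lists were -0.11, -0.17 and -0.17. The part of any of these cells in the Nes values was not tested.

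**Figure D4:**
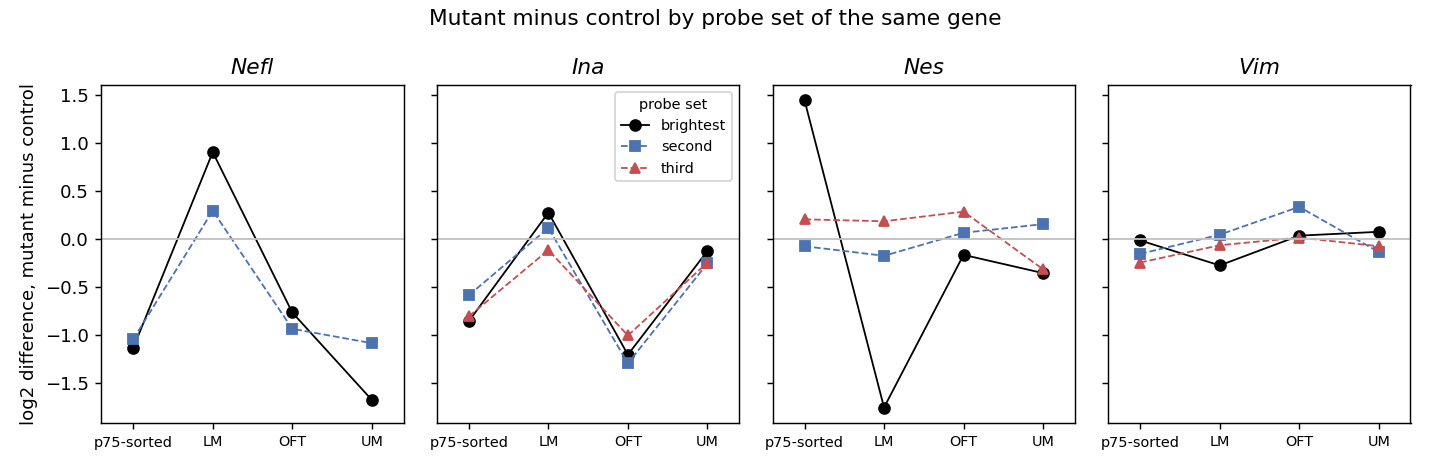
Mutant minus control on the log2 scale (y axis) in the 4 origins for every probe set above the filter of Nefl, Ina, Nes and Vim, with the brightest as a solid line and dimmer ones dashed, each point from 1 array per genotype. The Nefl lines lie close in p75-sorted cells and OFT but part in LM, at 0.90 and 0.29, and in UM, at -1.68 and -1.09. The Ina lines differ in sign in LM, from -0.12 to 0.27. The brightest Nes probe set spans -1.76 to 1.44 and its other probe sets stay within -0.32 and 0.28.

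Neuron markers moved with the neuronal filament genes in each pair. Of 20 markers, 18 were lower in the mutant for p75-sorted cells, 17 for OFT and 15 for UM, with medians of -0.52, -0.34 and -0.26. In LM 15 were higher, with a median of 0.36. Over all genes the medians were -0.016 for p75-sorted cells, -0.045 for OFT, 0.042 for UM and -0.037 for LM. The OFT shift was not particular to neuron markers. Mesenchyme markers were lower there for 8 of 10 genes, with a median of -0.39. Macrophage markers were lower for 4 of 4 and neural crest and glia markers for 6 of 8, with medians of -0.36 and -0.29. The muscle, epithelium and erythroid lists had medians of 0.05 to 0.26 there. The summed intensity of the neuron markers was 1100 to 7250 on the control arrays and 1310 to 5090 on the mutant arrays, and none was at 0. Tubb3, the neuronal beta tubulin gene, gave 860 and 527 for the sorted control and mutant, 49.7 and 59.2 in LM, 228 and 117 in OFT, and 201 and 152 in UM. Across the 4 pairs it differed by -0.42 ± 0.16 and Mapt, the tau gene, by -0.48 ± 0.13, and 0 of the 20 passed by limma, each of these with an adjusted p of 1. The part of the number of neurons in the filament differences was not tested.

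Not all neuronal genes had the same outline. Gap43, a growth cone protein gene, gave 0.03 for p75-sorted cells, -0.73 for OFT, 0.12 for UM and -0.24 for LM. Map2, a dendritic microtubule protein gene, differed by -0.59 in p75-sorted cells and -0.01 in UM, where Nefl and Nefm differed most. Pou4f1, a transcription factor of sensory neurons, gave -0.65 for p75-sorted cells, -0.31 for OFT, -0.74 for UM and 0.69 for LM, the same signs as Nefl. Kif5a, the kinesin heavy chain gene that carries neurofilaments along axons, gave -0.93 for p75-sorted cells, -1.24 for OFT, 0.12 for UM and 0.28 for LM, close to Ina in all but UM. Gap43, Map2, Pou4f1 and Kif5a were picked here after their values were seen.

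**Figure D5:**
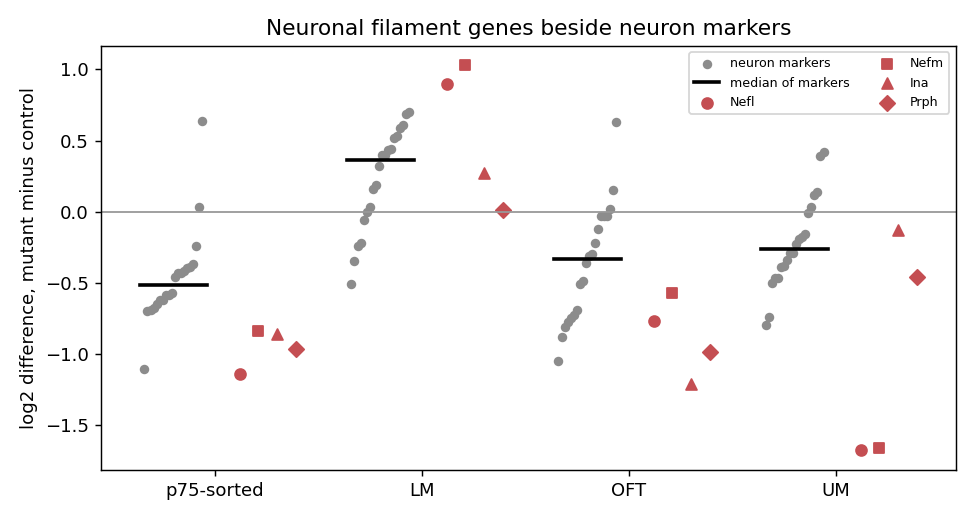
Mutant minus control on the log2 scale (y axis) in the 4 origins for 20 neuron markers (grey points, with a bar at their median) and for Nefl, Nefm, Ina and Prph (red symbols), each from 1 array per genotype. Markers and filament genes lie mostly below 0 in p75-sorted cells, OFT and UM, and the marker median lies above 0 in LM, at 0.36.

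Of the 14 other intermediate filament genes 7 lay above 0 and 7 below in mutant against control, with a median of 0.00, and 0 passed by limma. Krt15, Des and Krt19 had the largest differences, 0.31 ± 0.18, 0.24 ± 0.16 and -0.24 ± 0.13. Of the 19 linker, chaperone, motor and kinase genes 14 lay below 0, with a median of -0.05, and 0 passed, with the largest difference in Kif5a at -0.44 ± 0.22. Of the other marker lists, 0 genes passed in this comparison, and the medians were 0.39 for skeletal myoblasts, 0.08 for heart muscle, 0.06 for smooth muscle, -0.03 for neural progenitors, -0.05 for neural crest and glia, -0.09 for mesenchyme and endothelium, 0.04 for erythroid cells, -0.20 for macrophages and 0.00 for epithelium. Each of these had an adjusted p of 1 by limma. At an unadjusted p under 0.05 the whole fit held the 410 genes named above.

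Among themselves the neuronal genes ran together over the 8 arrays. Pearson's r of log2 values was 0.97 for Nefl and Nefm, which lie next to each other on chromosome 14, 0.93 for Ina and Prph, 0.91 for Nefl and Prph and 0.88 for Nefm and Prph. It was lower for Ina with Nefl and Nefm, at 0.76 and 0.71. Nes correlated with Nefl and Nefm at 0.60 and 0.58, with Prph and Ina at 0.74 and 0.80, and with Vim at 0.89. Vim ran with the neuronal genes as well, at 0.82 for Nefl, 0.81 for Nefm, 0.85 for Ina and 0.89 for Prph. The shared outline was thus not particular to the neuronal genes. Over the 6 unsorted arrays the values were 0.98 for Nefl and Nefm and 0.89 for Ina and Prph. These are descriptions over 8 arrays that share 4 origins.

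Each gene was set against 2571 other genes with an SD of at least 0.5 over the 8 arrays to name those with the most similar outline. Nefl was closest to Sncg, the gamma-synuclein gene of peripheral neurons, with r = 0.975, followed by Adgrb3 and Osbpl5 at 0.966 and 0.965, then Nrp1 and Klhdc8b. Nefm was closest to Efr3b, Rgs4 and Kdelr3, at 0.971, 0.963 and 0.951, followed by Adgrb3, which it shared with Nefl, and Zfpm2. Ina was closest to Mturn and Scg3, a secretory granule gene, both at 0.990, with Ahr, Abhd17a and Cadps next. Prph was closest to Triobp, Tnmd and Tsc22d4, at 0.973 to 0.977, followed by Slc17a6, the vesicular glutamate transporter gene, at 0.967. Nes was closest to Mief2 and Itpr3, at 0.976 and 0.970, and Vim to Lpar3 and Tmem176b, at 0.993 and 0.992.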

How the data were processed

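RNA from 8 samples was measured on Affymetrix arrays. Each array has 45101 deposited intensities, linear and not logged, which were scaled by the authors to a common trimmed mean, as the values themselves show. No source used here names the software. Names came from the platform's annotation table, in which 34945 had 1 gene, 932 several and 9160 were not listed. The 64 control probe sets were left out. Each of 18193 genes was represented by the probe set with the highest mean intensity.

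Intensities were turned into log2(intensity + 32). A gene was tested if at least 2 arrays lay above the 40th percentile, an intensity of 19.4, which left 13543 genes. Linear models (lmFit, eBayes) were fitted to all genes with limma 3.58.1 under R 4.3.3, with terms for origin and genotype. They left 3 residual degrees of freedom, to which the prior added 9.05. P-values were adjusted by Benjamini-Hochberg over all genes tested, with a threshold of 0.05, and values after ± are limma's moderated SE. The fit was tested on simulated data. The spread behind the p-values is that of mutant minus control among the 4 origins, moderated by limma across all genes. It is not a spread among replicate embryos, and the number of arrays limits the precision.

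The members and gene lists were chosen with earlier results of these data known. Up to 3 genes of a list are named per comparison, those with the largest difference among the genes that passed or, with none, among all tested, and the 5 genes most like each member were looked up. Alternatives changed the pseudocount, normalization, filter, probe set, prior, model and arrays. Pairing came from the origin label. Promoters are from RefSeq, GRCm38.p6.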

Additional observations from a re-analysis of the deposited data

Results flagged for a closer look

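In 5 results a single origin went the opposite way from every other origin in mutant against control. Nefl differed by 0.90 on the log2 scale in LM and lay below 0 in the other 3 pairs. Nefm differed by 1.03 in LM, Ina by 0.27 and Prph by 0.01, again against negative values elsewhere. The Prph value is no more than level, since both LM arrays were near an intensity of 1. Nes differed by 1.44 in p75-sorted cells and lay below 0 in the other 3 pairs, in its brightest probe set only. Each origin had 1 array per genotype, so none of these differences between origins was tested.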

How the results depend on the processing

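Of 470 values of single genes under the alternatives, 416 kept their direction and their side of the threshold, 23 no longer passed, 13 newly passed and 18 changed sign. Counts of genes called that moved by over 1.5 times were as follows. At a pseudocount of 1 the count was 1 for OFT and 3 for p75-sorted cells, and with an intensity trend in the prior it was 3 for p75-sorted cells and 1 for LM against UM. With the second brightest probe set, chosen after the values were seen, it was 3 of 5 for OFT. With arrays or pairs left out the count ranged from 0 to 1 for mutant against control, from 1 to 6 for OFT and from 0 to 1 for LM against UM. The calls that changed are given beside each comparison, and the cause was not tested. Quantile normalization, both other filters and pseudocounts of 16 and 64 moved no count by over 1.5 times.

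Changes of sign were confined, among the alternatives run, to mutant against control and LM against UM, and no changed value passed. With arrays left out, mutant against control ranged from -0.76 to 0.30 for Nes and from -0.09 to 0.02 for Vim. LM against UM ranged from -0.53 to 1.58 for Nefl, -1 to 1.06 for Nefm, -0.65 to 0.16 for Prph, -1.55 to 0.51 for Nes and -0.17 to 0.13 for Vim. With the second brightest probe set Vim was 0.02 for mutant against control and 0.09 for LM against UM, and Nes 0.07 for LM against UM. With probe sets averaged per gene Vim was 0.02 for LM against UM. Over all genes, OFT had 2060 calls, against 999 at a pseudocount of 1 and 624 and 1007 without its control or mutant array. LM against UM had 211 calls, against 64 at a pseudocount of 1 and 110, 116 and 125 without the UM control, the UM mutant or the LM control, and p75-sorted cells 6412 against 3269 without the sorted mutant.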
